A study of Homo sapiens with 6 samples.

Results

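The SHC and docking adaptor genes are 8 genes for the proteins that link activated receptors to the RAS-ERK cascade: SHC1, SHC2, SHC3, SHC4, GRB2, GAB1, GAB2 and FRS2. They were taken by symbol from the 62700 gene IDs in the count tables, and each symbol matched 1 ID. The set was chosen from the measured rise of SHC2 in this same comparison, so the SHC2 values are a description and carry no test. The other 7 genes were added by family and role. All were counted in OVCAR8, an established human ovarian carcinoma cell line, labelled as wild type. Serum was withdrawn overnight first. The 3 libraries of one group came from cells given PBS (Control), and the 3 of the other from cells given leptin at 100 ng/ml for 24 h (Leptin). The duration of the PBS arm is not given in the sources used here. The study looked for transcripts downstream of leptin that bear on stem-like behaviour of ovarian cancer cells.

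Adaptor proteins have no catalytic activity of their own. SHC proteins bind phosphotyrosines on receptors, become phosphorylated themselves and then bind GRB2, whose SH3 domains carry the RAS exchange factor SOS to the membrane. GAB1, GAB2 and FRS2 are docking proteins: once phosphorylated, they hold GRB2, the phosphatase SHP2 and, for the GAB proteins, the PI3-kinase regulatory subunit. The long form of the leptin receptor signals through the kinase JAK2, and SHP2 with GRB2 is its known route to ERK. In adults SHC1 is the widely expressed member of its family, while SHC2 and SHC3 are best known from neurons.

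The 4 SHC genes stood at very different levels, and the sequences just upstream of their start sites are shown to set them side by side. Each is the 250 bases before the RefSeq start site (GRCh38.p14, minus strand in all 4), printed 5′ to 3′ with every CG dinucleotide in capitals. SHC1 is at chr1:154974377-154974626, SHC2 at chr19:461034-461283, SHC3 at chr9:89178819-89179068 and SHC4 at chr15:48963920-48964169. SHC1 and GAB2 have 2 such windows each in RefSeq, and the one nearer to the 5′ end of the gene in the count tables was used.

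SHC1: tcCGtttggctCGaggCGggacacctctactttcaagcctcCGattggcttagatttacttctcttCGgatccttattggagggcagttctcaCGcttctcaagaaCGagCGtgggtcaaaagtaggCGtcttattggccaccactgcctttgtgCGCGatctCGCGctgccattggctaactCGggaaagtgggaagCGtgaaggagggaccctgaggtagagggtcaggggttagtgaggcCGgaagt

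SHC2: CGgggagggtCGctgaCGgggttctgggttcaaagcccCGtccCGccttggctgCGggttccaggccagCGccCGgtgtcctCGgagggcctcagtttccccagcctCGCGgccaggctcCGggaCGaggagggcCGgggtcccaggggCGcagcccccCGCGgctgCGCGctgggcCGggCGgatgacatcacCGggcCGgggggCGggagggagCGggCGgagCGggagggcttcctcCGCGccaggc

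SHC3: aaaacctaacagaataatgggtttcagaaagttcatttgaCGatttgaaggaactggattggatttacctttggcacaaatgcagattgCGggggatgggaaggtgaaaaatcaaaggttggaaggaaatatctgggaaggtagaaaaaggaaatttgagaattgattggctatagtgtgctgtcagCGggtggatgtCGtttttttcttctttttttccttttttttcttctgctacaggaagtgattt

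SHC4: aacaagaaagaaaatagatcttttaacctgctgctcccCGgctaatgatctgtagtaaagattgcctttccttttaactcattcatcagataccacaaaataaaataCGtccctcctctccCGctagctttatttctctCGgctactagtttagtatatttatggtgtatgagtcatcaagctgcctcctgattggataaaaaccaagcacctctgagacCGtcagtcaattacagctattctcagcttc

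In the count tables (hg38) SHC1 spans chr1:154962298-154974395, SHC2 chr19:416589-461033, SHC3 chr9:89005771-89178818, SHC4 chr15:48823741-48963919, GRB2 chr17:75318076-75405709 and GAB2 chr11:78215293-78418348, all on the minus strand. GAB1 spans chr4:143336876-143474565 and FRS2 chr12:69470349-69579793, both on the plus strand. All values are sums over the exons of a gene, from 4162 bases for SHC2 to 10002 bases for GAB1.

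The SHC2 window held 29 CG dinucleotides and was 78% G or C. The SHC1 window held 16 (55.2% G or C), the SHC3 window 4 (38% G or C) and the SHC4 window 5 (40% G or C). Over 35116 RefSeq windows of the same length the median was 11 CG dinucleotides and 58% G or C. Of the 8 adaptor genes, 7 had a window. GAB2 had the most CG dinucleotides of these, with 51, followed by SHC2, GRB2 with 27, SHC1 and FRS2 with 14. The GAB2 start site lies 528 bases from the 5′ end of the gene in the count tables. Its window is therefore inside the counted span, while the other start sites lie at most 39 bases from that end. A search of both strands for TTCNNNGAA, the core bound by STAT factors, found no match in the 7 windows, and 6.57% of all windows hold one. The AP-1 core TGANTCA was found once, in SHC4, and is in 6.57% of all windows. The CRE core TGACGTCA, in 1.65% of all windows, had no match. The 3 motifs read the same on both strands, so each site was counted once. Matches describe these letters only.

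Library totals lay between 15609425 and 18577775 counts. Leptin replicate 1 stood apart from its group: on principal component 1 (49.6% of the variance) it was at -2.15, between the controls (-31.0 to -23.6) and the other Leptin libraries (39.6 and 46.3). Of 10 ovarian carcinoma markers, PAX8, KRT7, KRT8 and KRT18 were abundant, while MUC16 and MSLN did not pass the filter on low counts. WT1, WFDC2, EPCAM and CDH1 did pass. Of the 8 tested, 7 had a log2 fold change above 0 and 1 below, and 0 had an edgeR adjusted p under 0.05. None of 6 immune and 4 endothelial markers passed that filter, PTPRC and CD3E had a count of 0 in every library, and the summed level of the immune markers was at most 0.264 CPM (counts scaled to library size) in Control and 0.231 CPM in Leptin. For the endothelial markers the sum was at most 0.780 CPM in Control and 1.33 CPM in Leptin. Of 6 fibroblast markers 4 were tested, all with lower means in Leptin, but none was called at an edgeR adjusted p under 0.05. The sum of all 6, most of it COL1A1, was 456 to 649.6 CPM in Control and 354 to 509 CPM in Leptin.

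SHC2 had the one large difference in the set. Its counts in Control replicates 1, 2 and 3 were 7, 11 and 15, and in Leptin replicates 1, 2 and 3 they were 47, 92 and 92. Scaled to library size, these were 0.369, 0.683 and 0.900 CPM in Control and 2.71, 6.15 and 5.46 CPM in Leptin. The groups did not overlap, and Leptin replicate 1 was the lowest of its group. The means were 0.651 ± 0.267 CPM in Control and 4.77 ± 1.82 CPM in Leptin (SD, n = 3 each). The log2 fold change was 2.87 ± 0.42 (SE), a 7.33-fold difference with a 95% interval from 3.87 to 13.9. In a bulk sample, more cells with the transcript and more transcript per cell cannot be told apart. By signed log2 fold change, counted from the largest rise down, SHC2 ranked 10 among the 15685 tested genes. The log2 fold change lay between 2.58 and 3.18 with any 1 library left out, and was 3.15 without Leptin replicate 1. It entered the test through its Leptin libraries: the filter on low counts asks for about 10 counts in 3 libraries, which SHC2 met in 3 Leptin and 2 Control libraries.

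SHC1, the main SHC gene of these cells, was at 154, 177 and 186 CPM in Control replicates 1 to 3 and at 206, 164 and 155 CPM in Leptin replicates 1 to 3. Leptin replicate 1 was above all controls and the groups overlapped. The log2 fold change was 0.02, with a 95% interval from -0.27 to 0.31. Without Leptin replicate 1 it was -0.12. Of the SHC1 exon bases, 15.2% also belong to another gene, PYGO2 on the same strand or a gene on the opposite strand, and read pairs there that touched both genes were not counted. Its pseudogenes SHC1P1 and SHC1P2 had 0 counts and 1 count over the 6 libraries. Read pairs that map to several places were left out.

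SHC3 and SHC4 were near the limit of detection. SHC3 had 5, 6 and 2 counts in Control replicates 1 to 3 and 7, 5 and 2 in Leptin replicates 1 to 3. SHC4 had 8, 3 and 0 counts in Control and 13, 8 and 2 in Leptin. Both overlapped between the groups, and neither passed the filter on low counts, so no fold change is given. A count of 0 allows up to 3 counts, which equal 0.158 to 0.200 CPM here, and this limit covers counting error only.

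**Figure D1:**
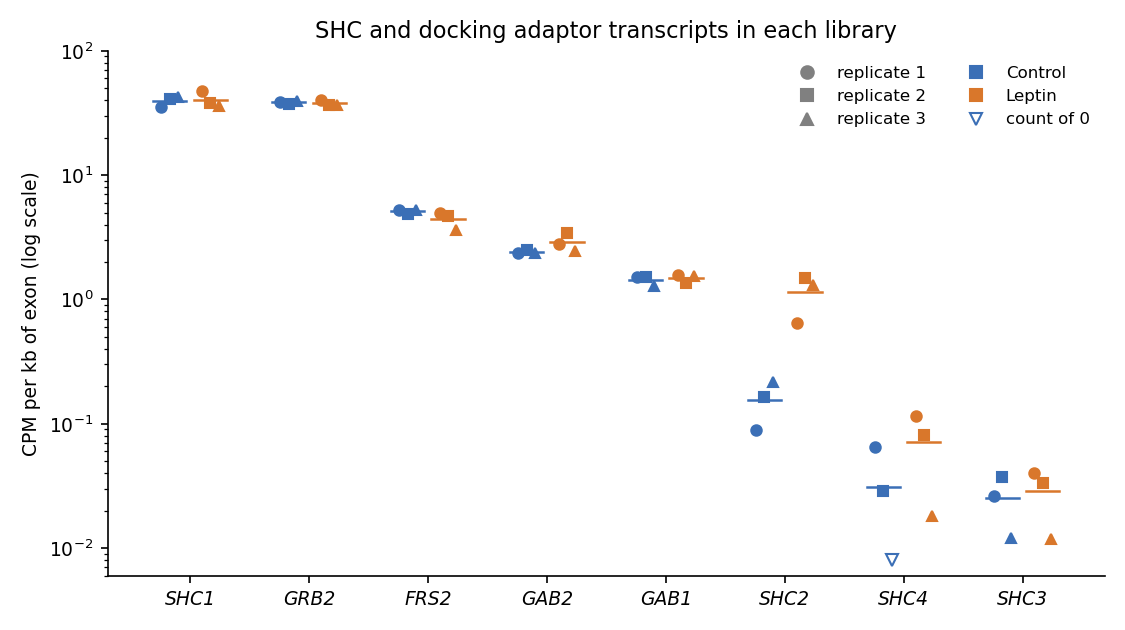
Each point is 1 library, Control in blue and Leptin in orange, with the marker showing the replicate; the y axis is CPM per kb of exon on a log scale, lines are group means, and the open triangle marks the SHC4 count of 0 in Control replicate 3. SHC2 is the 1 gene whose Control and Leptin points do not overlap.

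Per kb of exon, the SHC family in Control was made almost entirely of SHC1. SHC2 gave 0.248%, 0.401% and 0.503% of the summed SHC1 to SHC4 level in Control replicates 1 to 3, and 1.35%, 3.75% and 3.55% in Leptin replicates 1 to 3. The mean share was 0.384% ± 0.128 in Control and 2.88% ± 1.33 in Leptin (SD, n = 3 each). SHC1 still made up 96.9% ± 1.27 of the family in Leptin, against 99.5% ± 0.0298 in Control. The summed SHC level overlapped between the groups, at 39.9 ± 3.75 CPM per kb in Control and 41.5 ± 5.97 CPM per kb in Leptin (SD, n = 3 each).

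**Figure D2:**
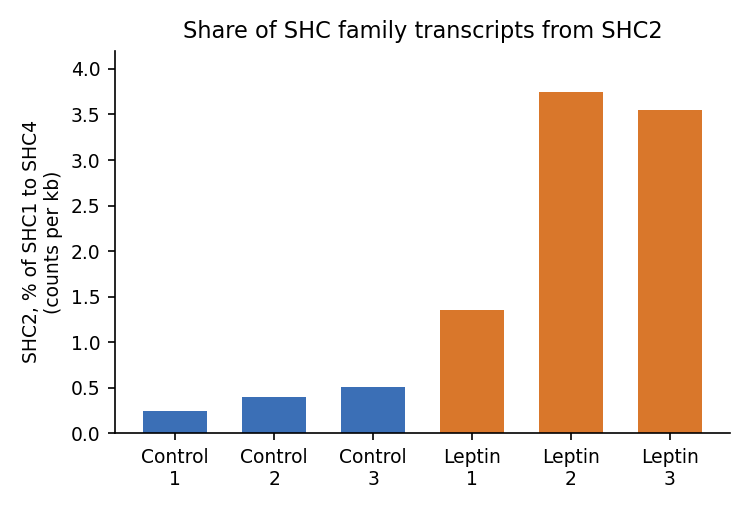
Bars give the percentage of the summed SHC1 to SHC4 level (counts per kb of exon) that came from SHC2, 1 bar for each library. The 3 Control bars lie between 0.248% and 0.503% and the 3 Leptin bars between 1.35% and 3.75%.

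GRB2, the link between SHC or docking proteins and SOS, had close values in all 6 libraries. It stood at 181, 177 and 185 CPM in Control replicates 1 to 3 and at 190.4, 173 and 174 CPM in Leptin replicates 1 to 3. The groups overlapped, and the log2 fold change of -0.01 had a 95% interval from -0.24 to 0.21.

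Of the docking protein genes, GAB2 was at 16.03, 17.02 and 15.90 CPM in Control replicates 1 to 3 and at 18.8, 23.4 and 16.7 CPM in Leptin replicates 1 to 3. Leptin replicates 1 and 2 were above all controls, and replicate 3 was not. The log2 fold change of GAB2 was 0.26, with a 95% interval from -0.06 to 0.59. It was 0.12 without Leptin replicate 2 and 0.36 without Leptin replicate 3. GAB1 was at 15.0, 15.1 and 12.9 CPM in Control and at 15.6, 13.6 and 15.4 CPM in Leptin. The groups overlapped, and the log2 fold change of 0.05 had a 95% interval from -0.26 to 0.36. FRS2, the docking protein of FGF and neurotrophin receptors, was at 38.1, 35.5 and 38.0 CPM in Control and at 36.1, 34.0 and 26.3 CPM in Leptin. Leptin replicate 3 was the lowest of the 6 libraries, and Leptin replicate 1 lay within the controls. The log2 fold change of FRS2 was -0.21, with a 95% interval from -0.50 to 0.08. It was -0.09 without Leptin replicate 3 and -0.31 without Leptin replicate 1. For SHC1, GRB2, GAB1, GAB2 and FRS2 these intervals reach at most 1.51-fold upward, the upper bound for GAB2, and 0.705-fold downward, the lower bound for FRS2.

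Of the 8 genes 6 passed the filter on low counts, and 1 of them, SHC2, passed edgeR's quasi-likelihood test at an adjusted p under 0.05. Over all 15685 tested genes 9.81% passed, 5.71% as higher with leptin, and the groups did not overlap for 32.2%. Nothing is read from this count, because the same comparison chose SHC2. The median log2 fold change of the 6 tested genes was 0.04, and that of all tested genes was 0.01. The labels do not say whether replicates came from separate cultures, so the intervals and p-values here speak only of differences among these 6 libraries, and those may be technical.

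**Figure D3:**
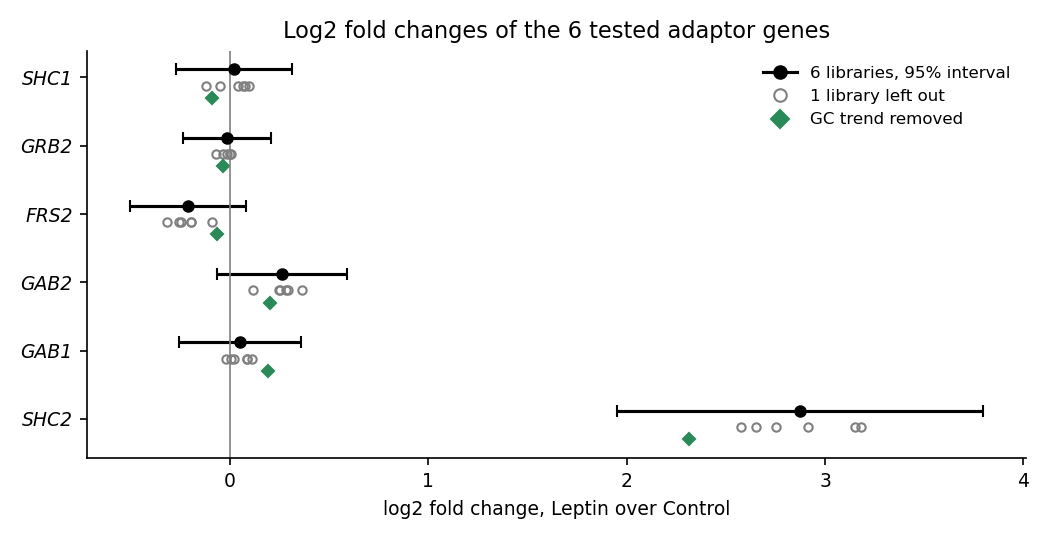
Black points and bars give the log2 fold change of Leptin over Control and its 95% interval from all 6 libraries, open circles the value with 1 library left out, and green diamonds the value after the GC trend was removed. SHC2 lies between 2.58 and 3.18 in the 6 leave-outs, and the other 5 genes lie near 0.

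The order of levels per kb of exon was the same in both groups. In Control, SHC1 (39.7 ± 3.72 CPM per kb) and GRB2 (38.4 ± 0.830) overlapped in range. FRS2 (5.13 ± 0.206), GAB2 (2.41 ± 0.0904), GAB1 (1.43 ± 0.125) and SHC2 (0.156 ± 0.0642) followed, each apart from its neighbours. SHC4 (0.0310 ± 0.0324) and SHC3 (0.0253 ± 0.0127) came last and overlapped (mean ± SD, n = 3 each). In Leptin, SHC2 reached 1.15 ± 0.437 CPM per kb and its range overlapped that of GAB1, at 1.49 ± 0.112. GRB2 was 7.47 times the level of the most abundant docking gene, FRS2, in Control and 8.56 times in Leptin. Levels use the length of all exons of a gene together, which understates genes that mostly use short isoforms.

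SHC2 also stood apart from the other adaptor genes in base composition. The longest SHC2 transcript in GENCODE 29 was 68.1% G or C, at percentile 99.1 of the tested genes. SHC1 was at 56.5%, GAB2 at 54.5%, GRB2 at 52.3%, SHC3 at 50.2%, SHC4 at 43.5%, GAB1 at 38.4% and FRS2 at 36.9%. Log2 fold changes of all genes moved with GC content: in the fifth of genes with most GC, to which SHC2 belongs, 17.6% were called higher with leptin, and the median log2 fold change there was 0.30. After each library's GC trend was taken out, the log2 fold change of SHC2 was 2.31. When 1 library was also left out it lay between 2.02 and 2.66, and SHC2 was then not among the called genes without Control replicate 1 (2.02), Control replicate 2 (2.31) or Leptin replicate 3 (2.30). How much of the SHC2 difference goes with GC content beyond these values was not tested. Removal of the GC trend gave -0.09 for SHC1, -0.04 for GRB2, 0.20 for GAB2, 0.19 for GAB1 and -0.07 for FRS2.

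**Figure D4:**
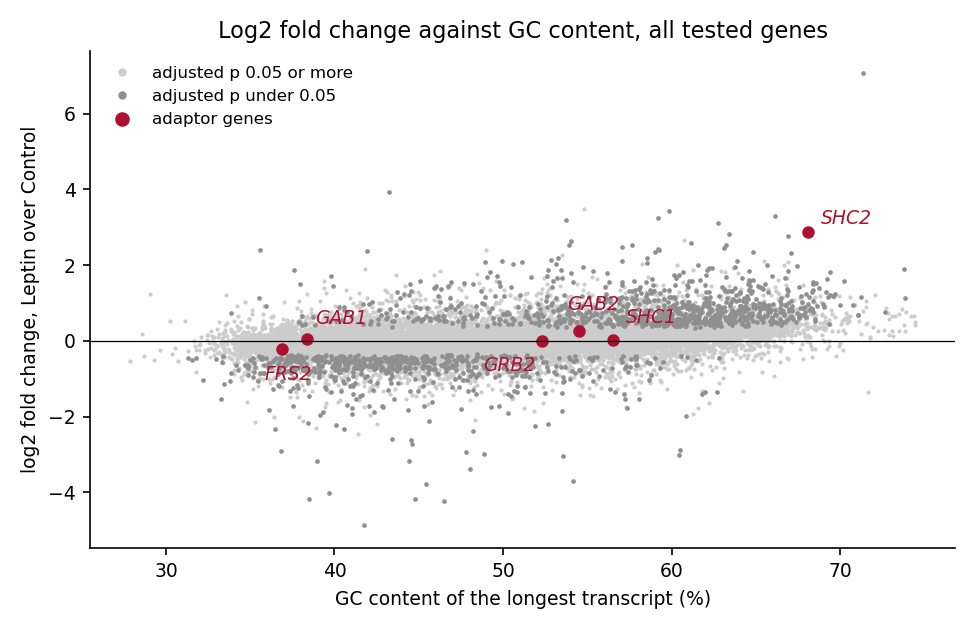
Each grey point is 1 tested gene with known GC content, darker where its edgeR adjusted p is under 0.05; the x axis is the GC content of its longest transcript in percent and the y axis its log2 fold change of Leptin over Control. Of the 6 tested adaptor genes in red, SHC2 is the farthest right, at 68.1%, and the highest, at 2.87.

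SHC2 spans 416589 to 461033 of chromosome 19 on the minus strand (hg38), and the nearest tested gene on one side rose as well. C2CD4C, of a family of C2-domain proteins, lies 7.44 kb away on the same strand. It was at 2.003, 2.30 and 1.98 CPM in Control replicates 1 to 3 and at 5.13, 10.4 and 9.15 CPM in Leptin replicates 1 to 3. As for SHC2, Leptin replicate 1 was the lowest of the Leptin libraries and still above all controls. The log2 fold change of C2CD4C was 1.97 ± 0.28 (SE), with an edgeR adjusted p of 0.00418. C2CD4C passed in all 6 leave-outs, narrowly without Control replicate 1 (edgeR adjusted p = 0.0464). It also passed with the GC trend removed (1.44, edgeR adjusted p = 0.00867). THEG, a testis gene 40.6 kb away on that side, rose from 3.29 ± 0.498 to 6.43 ± 1.14 CPM (SD, n = 3 each; log2 fold change 0.97 ± 0.23, SE; edgeR adjusted p = 0.0264). THEG lost its call in every leave-out except that of Leptin replicate 1 (edgeR adjusted p up to 0.143, without Control replicate 1) and with the GC trend removed (log2 fold change 0.81, edgeR adjusted p = 0.0582). On the other side, ODF3L2, 2.31 kb away, had means of 0.609 ± 0.178 and 1.17 ± 0.710 CPM that overlapped in range, and did not pass (edgeR adjusted p = 0.318 at a log2 fold change of 0.91 ± 0.56, SE). Like THEG, ODF3L2 passed without Leptin replicate 1 (edgeR adjusted p = 0.0498, log2 fold change 1.32), and in no other leave-out (up to 0.692). MADCAM1, of a lymphocyte-homing adhesion molecule and 28.1 kb away, was at 1.202 ± 0.294 and 1.43 ± 0.272 CPM, and did not pass either (edgeR adjusted p = 0.708). The transcripts of C2CD4C, ODF3L2 and MADCAM1 are also rich in GC, at 67.5%, 68.1% and 66.0%, and that of THEG is at 58.1%. No exon of SHC2 overlaps another annotated gene.

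Across the 6 libraries, the genes with the pattern most like that of SHC2 were RSAD1, CSNK1D, CEACAM19, TIMP3 and CTDSP1, by Pearson's r of log2 CPM (0.999, 0.998, 0.996, 0.995 and 0.995). This likeness rests on 6 points that share the treatment contrast, and 329 of 14269 candidate genes with a mean of at least 1 CPM had an r of at least 0.95. In size the changes differed: TIMP3, an inhibitor of metalloproteinases, was at 21.5 CPM in Control and 53.2 CPM in Leptin, while the kinase gene CSNK1D was at 169 and 204 CPM.

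Of 28 other adaptor and docking genes tested, 5 rose and 1 fell, where 9.81% of all tested genes were called and 5.71% were called higher. With the GC trend removed 2 were higher and 2 lower, beside 426 higher and 442 lower among 15685 tested genes. Of the 28, 13 had an unadjusted edgeR p under 0.05, beside 27.6% of all tested genes. SHCBP1, a SHC1-binding protein that also acts in cell division, fell from 38.7 ± 3.78 to 21.4 ± 2.62 CPM (SD, n = 3 each; log2 fold change -0.85 ± 0.13, SE; edgeR adjusted p = 0.00554). It passed in all 6 leave-outs, narrowly without Control replicate 3 (edgeR adjusted p = 0.0497). SHF, an SH2-domain adaptor, rose from 8.42 ± 0.611 to 14.9 ± 0.681 CPM (edgeR adjusted p = 0.00929), and SH2D3A rose from 15.2 ± 1.29 to 25.6 ± 3.06 CPM (0.0109). SH2B2, an adaptor that binds JAK2 and the insulin receptor, rose from 5.50 ± 0.970 to 13.5 ± 5.78 CPM (edgeR adjusted p = 0.0284), with Leptin replicate 1 at 6.80 CPM and the other Leptin libraries at 16.6 and 17.04 CPM. The remaining genes called, SH2B1 and DOK4, both higher, are named here after their values were seen. The median log2 fold change of the 28 genes was 0.20. SHF lost its call without Control replicates 1 and 3 (edgeR adjusted p up to 0.0773), and SH2D3A without each control replicate and without Leptin replicate 3 (up to 0.0844). SH2B2 and SH2B1 kept theirs only without Leptin replicate 1 (up to 0.136 and 0.164) and also lost them with the GC trend removed (0.0951 and 0.226). DOK4 lost its call without each control replicate or Leptin replicate 3 (up to 0.227) and with the GC trend removed (0.101). Leaving out Control replicate 1, 2 or 3 gave 1, 2 or 1 calls in this list, and leaving out Leptin replicate 1, 2 or 3 gave 12, 4 or 2. Over all genes the control leave-outs called 115 of 16176, 366 of 16275 and 170 of 16243. Those of Leptin replicates 1, 2 and 3 called 4761 of 16101, 788 of 16292 and 268 of 16167.

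Among 29 tested enzymes that the adaptors recruit, such as SOS exchange factors, RAS proteins, SHP2 and PI3-kinase subunits, 2 rose and 0 fell (edgeR). Over all tested genes edgeR called 9.81%. DESeq2 called 3 enzymes higher and 1 lower, beside 2118 of 15004 genes over all. An unadjusted p under 0.05 was found for 7 of the 29, and for 27.6% of all tested genes. INPPL1, the lipid phosphatase SHIP2, rose from 290.4 ± 21.1 to 539.8 ± 145 CPM (SD, n = 3 each; log2 fold change 0.89 ± 0.17, SE; edgeR adjusted p = 0.0128). The RAS-related GTPase gene MRAS rose from 13.5 ± 1.55 to 21.95 ± 0.387 CPM (edgeR adjusted p = 0.0129). Both lost their calls without each control replicate and without Leptin replicate 3 (edgeR adjusted p up to 0.101 for INPPL1 and 0.0998 for MRAS). Of the direct partners of GRB2 and the docking proteins, SOS1 was at 67.1 ± 0.553 and 72.2 ± 14.2 CPM, and PTPN11, which encodes SHP2, at 245 ± 5.83 and 224 ± 52.1 CPM. Neither passed (edgeR adjusted p = 0.662 and 0.613); both are named after their values were seen. The list had a median log2 fold change of -0.02. It had 0 genes called without Control replicates 1, 2 or 3 or Leptin replicate 3, and 9 without Leptin replicate 1. Over all genes, 4761 of 16101 were called without Leptin replicate 1 and 268 of 16167 without Leptin replicate 3. Without Control replicates 1, 2 and 3 they were 115 of 16176, 366 of 16275 and 170 of 16243.

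Downstream, 0 of 18 tested RAF, MEK and ERK kinases and scaffolds passed edgeR's test, where 9.81% of all tested genes did. DESeq2 called 2 of them (2118 of 15004 over all genes) and limma-voom 0 (1316 of 15685). An unadjusted p under 0.05 was found for 4 of the 18, and for 27.6% of all tested genes. Their median log2 fold change was 0.08, and without Leptin replicate 1 edgeR called 3, all higher. Over all genes that leave-out called 4761 of 16101, 2583 of them higher. Of 22 transcripts known to respond to ERK, 3 rose and 1 fell, beside 9.81% called among all tested genes, with a median log2 fold change of -0.01. By limma-voom 1 was higher and 2 were lower, beside 700 higher and 616 lower among 15685 tested genes. Of the 22, 7 had an unadjusted edgeR p under 0.05, beside 27.6% of all tested genes. DUSP4, a phosphatase of ERK, was at 66.4, 75.7 and 68.8 CPM in Control replicates 1 to 3 and at 83.1, 149 and 133 CPM in Leptin replicates 1 to 3 (edgeR adjusted p = 0.0240). PHLDA1 rose (log2 fold change 0.62, edgeR adjusted p = 0.0432), as did EPHA4 (0.90, edgeR adjusted p = 0.0486). The immediate early gene FOS fell (log2 fold change -2.19, edgeR adjusted p = 0.0151). Its counts were low, at 54, 66 and 37 in Control replicates 1 to 3 and 19, 5 and 9 in Leptin replicates 1 to 3. This list had 0 genes called without any 1 of the control replicates or Leptin replicate 3, 1 without Leptin replicate 2 and 10 without Leptin replicate 1. Over all genes, 4761 of 16101 were called without Leptin replicate 1, 788 of 16292 without replicate 2 and 268 of 16167 without replicate 3. Without Control replicates 1, 2 and 3 they were 115 of 16176, 366 of 16275 and 170 of 16243. EPHA4 lost its call in all 6 leave-outs (edgeR adjusted p up to 0.209). DUSP4 and PHLDA1 kept theirs only without Leptin replicate 1 (up to 0.138 and 0.208), and FOS only without Leptin replicates 1 and 2 (up to 0.0839).

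Of 21 tested receptors that recruit these adaptors, counted with the receptor-bound kinase JAK2, 2 rose and 0 fell (edgeR). Over all tested genes edgeR called 9.81%. DESeq2 called 5 of this list, all higher, beside 2118 of 15004 genes over all. An unadjusted p under 0.05 was found for 9 of the 21, and for 27.6% of all tested genes. RET, a receptor for GDNF-family ligands that recruits SHC1 and FRS2, rose from 8.83 ± 1.10 to 14.7 ± 0.0759 CPM (SD, n = 3 each; edgeR adjusted p = 0.0157). FGFR2, which signals through FRS2, rose from 3.15 ± 0.431 to 6.14 ± 0.487 CPM (edgeR adjusted p = 0.0223). RET lost its call without Control replicates 1 and 3 and Leptin replicate 3 (edgeR adjusted p up to 0.111), and FGFR2 in every leave-out except that of Leptin replicate 1 (up to 0.130). The leptin receptor gene LEPR was at 15.5 ± 0.924 CPM in Control and 11.6 ± 2.86 CPM in Leptin, and JAK2 at 8.13 ± 1.499 and 9.15 ± 0.608 CPM. Neither passed (edgeR adjusted p = 0.165 and 0.589), and both are named after their values were seen. The median log2 fold change of the list was 0.26. Leaving out Control replicate 1, 2 or 3 gave 0, 1 or 0 calls here, and leaving out Leptin replicate 1, 2 or 3 gave 8, 1 or 0. Over all genes the control leave-outs called 115 of 16176, 366 of 16275 and 170 of 16243. Those of Leptin replicates 1, 2 and 3 called 4761 of 16101, 788 of 16292 and 268 of 16167.

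**Figure D5:**
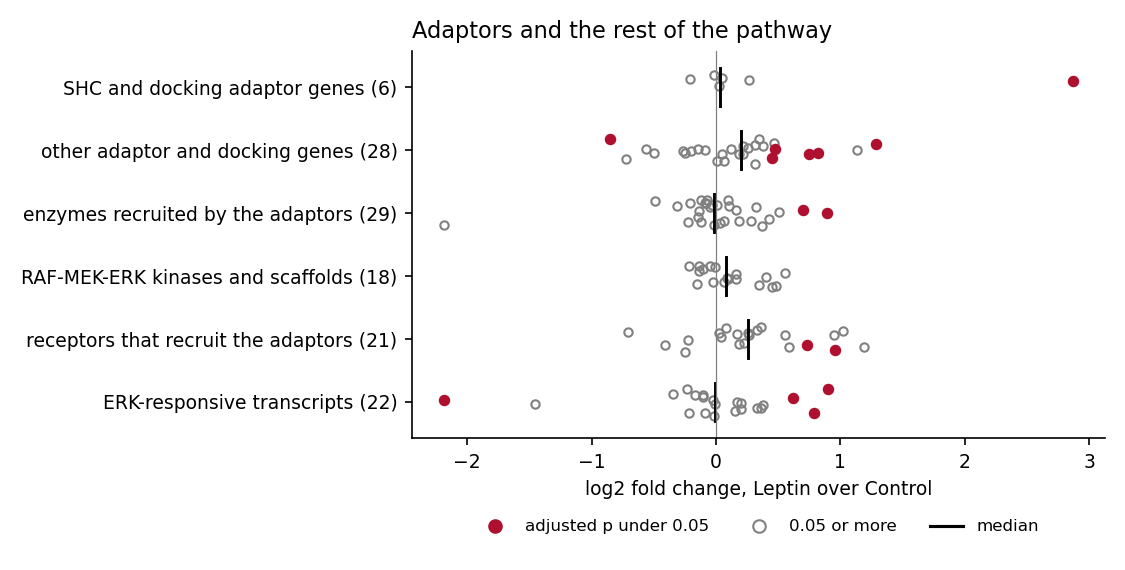
Each point is 1 tested gene of the list named at the left, with the number of tested genes in brackets; the x axis is the log2 fold change of Leptin over Control, filled red points have an edgeR adjusted p under 0.05, and black lines are medians. SHC2 is the red point at 2.87 in the top row, and FOS the red point at -2.19 in the bottom row.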

How the data were processed

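RNA of OVCAR8 cells was sequenced as 3 Control and 3 Leptin libraries (directional kit, paired ends, per the labels' protocols). The deposited values are raw counts of read pairs per gene. Per the file headers, the authors counted pairs over exons of GENCODE release 44 with featureCounts 2.0.1, without a strand option and without counting multi-mapping pairs or pairs over several genes. HISAT2 2.0.5, the build hg38, featureCounts in another version (1.5.0-p3) and DESeq2 are listed by the submitters' processing notes. All 62700 IDs matched a symbol.

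Genes were tested with edgeR 4.0.16 (filterByExpr, TMM scaling, robust quasi-likelihood fit, group as the only term) over 15685 genes with Benjamini-Hochberg adjustment and a threshold of 0.05. CPM values use TMM-scaled totals, and levels per kb use the exon length in the files. GC content (GENCODE 29, longest transcript) was known for 97.2% of tested genes, and its trend was removed with a lowess span of 0.3. Other alternatives were DESeq2 1.42.0, limma-voom (limma 3.58.1), upper-quartile scaling, no filter, the replicate number as a block, and fits with 1 library left out. No pair of same-group libraries was alike within sampling noise, so each counted as 1 sample. The chi-square for each gene on average was 5.24 to 5.61 for Control pairs and 19.2 to 45.4 for Leptin pairs. It cannot show whether the libraries came from separate cultures.

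The adaptor genes, the pathway lists and the alternatives were chosen with earlier results of these data known. The text names the 8 adaptor genes, at most 4 of the called genes of each list, in order of adjusted p, the 5 genes most like SHC2 (Pearson's r of log2 CPM, prior count 2), the 2 nearest tested genes on each side of it, and genes that overlap an adaptor gene or carry its symbol as a prefix. SH2B1, DOK4, SOS1, PTPN11, LEPR and JAK2 fall outside this rule and were named after their values were seen. Promoter windows are from RefSeq (GRCh38.p14).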

Additional observations from a re-analysis of the deposited data

How the results depend on the processing

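The log2 fold change of SHC2 ranged from 2.02 to 3.18 over 19 alternatives, which all reuse the values that chose the set and so lend it no support. In 3 leave-outs with the GC trend also removed (added once the data had been seen) the number of adaptor genes called was 0, and SHC2 stood at 2.02, 2.31 and 2.30. The other 5 tested adaptor genes passed in none of the 19. Leaving out 1 library gave 2.58 to 3.18 for SHC2, -0.12 to 0.10 for SHC1, -0.070 to 0.0076 for GRB2 and -0.020 to 0.11 for GAB1. For GAB2 it gave 0.12 to 0.36, and for FRS2 -0.31 to -0.09. With the GC trend also removed it gave 2.02 to 2.66 for SHC2, 0.12 to 0.26 for GAB1 and -0.17 to 0.055 for FRS2, while SHC1 stood at -0.15, -0.086 and -0.039 without Control replicates 1, 2 and 3 and at -0.22, -0.059 and -0.00034 without Leptin replicates 1, 2 and 3. SHC1 was also below 0 with the GC trend removed (-0.090) and with the replicate block besides (-0.10). The cause of these sign changes was not tested. SHC3 and SHC4 had no value in the main test; with no filter on low counts their log2 fold changes were 0.17 and 1.14 (edgeR adjusted p = 0.948 and 0.571).

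The 1538 genes called became 2118 (of 15004) with DESeq2, 1316 with limma-voom, 1528 with upper-quartile scaling and 2437 (of 32828) with no filter. They became 1303 with the replicate block, 868 with the GC trend removed and 942 with both. In the leave-outs they ranged from 115 (without Control replicate 1) to 4761 (without Leptin replicate 1). With the GC trend removed 426 of the 868 were higher, against 896 of 1538. Leave-outs gave 1 to 12 calls among other adaptors, 0 to 9 among enzymes, 0 to 3 among RAF, MEK and ERK genes, 0 to 8 among receptors and 0 to 10 among ERK-responsive transcripts. The number of enzymes called was 4 with DESeq2. RAF, MEK and ERK genes called were 2 with DESeq2, 1 with upper-quartile scaling and 2 with no filter. Receptors called were 5 with DESeq2 and 5 with no filter. Other adaptors called were 3 with the replicate block and the GC trend removed (1 higher and 2 lower, against 5 higher and 1 lower), and ERK-responsive transcripts called were 2 with the replicate block. The replicate numbers did not pair the libraries (correlations of deviations between same-numbered libraries -0.05, 0.01 and -0.11; no library correlated best with its own number), so the block is given here for completeness: SHC2 stood at 2.86 with it. A leave-out also has fewer libraries and so less power, yet without Leptin replicate 1 more genes were called (4761 against 1538). The cause of that rise was not tested. Depth limits SHC3 and SHC4, with at most 13 counts in a library, and the Control values of SHC2.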
